A study of Mus musculus with 4 samples.

Results

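Integrins, the proteins that tie them to actin filaments, and the catenins of cadherin junctions were followed here in thymocytes meant to lack Ikaros. The genes were taken from a list of 38 symbols, and every probe set whose only platform symbol was on the list was used. That gave 91 probe sets for 37 genes, out of 34945 probe sets for 18193 genes; Ptk2 was not analysed here. The list was drawn up with differences between these groups already known, so the differences of its genes are given as a description, and p-values come from a fit across all genes.

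RNA came from double positive thymocytes, which carry both CD4 and CD8 on their surface, of 4 mice on Affymetrix arrays, 1 array per mouse. There were 2 Ikf/f CD4-Cre- mice (Cre-negative, the controls), which carry the Ikf/f alleles and no Cre, and 2 Ikf/f CD4-Cre+ mice (Cre-positive), which carry the same alleles and a CD4-Cre transgene. CD4-Cre is active in thymocytes from about this stage on and is meant to delete Ikaros, the zinc finger DNA-binding protein encoded by Ikzf1. All 4 mice were Ikf/f and none carried Cre without it, so effects of Cre and of the deletion cannot be told apart. No age or isolation method was stated in the labels used here.

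Integrins are receptors made of an alpha and a beta subunit that bind matrix or proteins on other cells. Talin and kindlin switch them on from inside the cell, and vinculin, alpha-actinin and filamin join them to actin, while paxillin, the ILK, PINCH and parvin complex and focal adhesion kinases pass signals on. Lymphocytes chiefly use LFA-1, which pairs Itgal with Itgb2, and VLA-4, which pairs Itga4 with Itgb1, and developing thymocytes touch stroma and each other through them. Catenins link cadherins to actin, and beta-catenin also acts with TCF and LEF factors in the nucleus.

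Promoters are shown for 3 genes with large differences that have an entry in the RefSeq promoter table (GRCm38.p6), Vcl, Ctnnd1 and Jup, and for Fermt3, which had a probe set with a called decrease. Each line holds the 250 bases before an annotated start, 5′ to 3′ on the gene's strand, with matches to GGGAA on either strand in capitals; GGGAA is the core of the sequences that Ikaros binds.
Vcl, chr14:20929148-20929397, plus strand: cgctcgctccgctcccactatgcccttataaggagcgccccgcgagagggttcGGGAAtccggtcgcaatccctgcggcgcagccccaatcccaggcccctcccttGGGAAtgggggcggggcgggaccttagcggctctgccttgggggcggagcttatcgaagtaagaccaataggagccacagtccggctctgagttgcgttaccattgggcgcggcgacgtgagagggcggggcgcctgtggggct
Ctnnd1, outer start, chr2:84658978-84659227, minus strand: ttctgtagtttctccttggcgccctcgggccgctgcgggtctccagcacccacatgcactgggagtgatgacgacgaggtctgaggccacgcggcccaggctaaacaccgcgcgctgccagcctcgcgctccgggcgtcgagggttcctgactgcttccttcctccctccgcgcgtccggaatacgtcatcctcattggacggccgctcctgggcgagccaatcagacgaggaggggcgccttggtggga
Ctnnd1, inner start, chr2:84650741-84650990, minus strand: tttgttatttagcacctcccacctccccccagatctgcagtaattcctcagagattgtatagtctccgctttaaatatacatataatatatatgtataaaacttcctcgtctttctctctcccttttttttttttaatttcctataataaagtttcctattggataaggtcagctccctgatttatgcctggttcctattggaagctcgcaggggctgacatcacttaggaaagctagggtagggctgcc
Jup, chr11:100397791-100398040, minus strand: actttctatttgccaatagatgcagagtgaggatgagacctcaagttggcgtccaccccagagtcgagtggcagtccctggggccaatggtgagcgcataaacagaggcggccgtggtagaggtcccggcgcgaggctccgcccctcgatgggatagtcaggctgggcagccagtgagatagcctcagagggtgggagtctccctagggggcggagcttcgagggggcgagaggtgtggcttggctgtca
Fermt3, chr19:7019470-7019719, minus strand: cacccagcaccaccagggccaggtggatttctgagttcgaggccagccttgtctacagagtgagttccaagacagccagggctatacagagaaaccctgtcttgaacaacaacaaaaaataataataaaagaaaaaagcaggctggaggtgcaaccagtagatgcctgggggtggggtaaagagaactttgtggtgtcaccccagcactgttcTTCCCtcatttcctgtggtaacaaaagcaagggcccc
Vcl had matches that began 197 and 144 bases before the start, Fermt3 had 1 that began 37 bases before it, and neither Ctnnd1 start nor Jup had any. Of all 32851 promoters in the table, 56.2% held the core, and of the 32 promoters listed for 25 of the genes 62.5% did. Listed genes on 1 chromosome were left out of the 32 promoters and of those shown, while no chromosome was left out of the 32851. The marked matches are letters in a window and were not tested as binding sites.

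Ikzf1 fell, as measured by the brighter of its probe sets. That probe set read 12.40 and 12.08 in controls 1 and 2 and 10.80 and 10.62 on CD4-Cre+ arrays 1 and 2, so that Ikzf1 fell by 1.53 on the log2 scale (limma adjusted p = 0.024). The call was lost with any 1 array left out (adjusted p from 0.0717 to 0.164). Its other probe set differed by −0.22, the mean of both by −0.88, and the position of the probes against the deleted part is not known. Markers of the labelled cells were high on all arrays: Rag1 lay between 13.25 and 13.46, Cd8a between 12.71 and 13.04, and Cd4 between 10.37 and 10.64. Of the 9 markers measured 0 were called in limma. At an unadjusted limma p under 0.05, 1 was higher and 3 were lower, against 14.3% and 6.29% of all genes. Both Cre-positive arrays were lower for 7 of the 9, against 18.7% of all genes. Their median difference was −0.23, against 0.06 over all genes, with the extremes at −0.66 (Cd1d1) and 1.16 (Ptcra). In the fit across 11639 genes that passed a filter on low signal (a mean of at least 4.76), 129 rose with CD4-Cre and 31 fell at an adjusted p under 0.05. With arrays centred on the median of these genes, a step that took the median over all genes from 0.06 to −0.07, the calls were 75 and 48. The arrays did not stand alike in all respects. Xist read 12.75 in control 2 and 4.73 to 5.37 elsewhere, the pattern of 1 female and 3 males, and the granulocyte gene S100a8 read 8.38 on CD4-Cre+ array 2 and 4.02 to 4.52 elsewhere.

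Among the adhesion genes, a few rose strongly and many others differed little. Of the 37 genes, 31 passed the signal filter; of those, 4 rose in limma (Mpzl2, Vcl, Ctnnd1 and Itgb3), 0 fell and 27 were not called. Mpzl2 passed the filter only through its Cre-positive arrays, while the remaining genes that passed had means above it in both groups. Over all genes tested 1.11% rose and 0.266% fell, but nothing is read from the difference, since the list was made with these results known. At an unadjusted p under 0.05 there were 9 higher and 4 lower genes, against 14.3% and 6.29% of all genes. Both Cre-positive arrays lay above both control arrays for 13 genes (41.9%, against 34.2% of all genes) and below them for 10 (32.3%, against 18.7%). The 13 covered differences from 0.17 to 3.50 and 6 of them reached 0.5 (8.2% of all genes did). The 10 ran from −0.42 to −0.11, so that 0 reached −0.5 (3.14% of all genes did). The median difference was 0.03, and 0.06 over all genes. The 4 calls depended on which array was left out: 0 were left without control 1, 0 without control 2, 1 (Mpzl2) without CD4-Cre+ array 1 and 4 without CD4-Cre+ array 2. Such a fit leaves 1 group with a single array, which is assumed to vary like the other group.

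**Figure D1:**
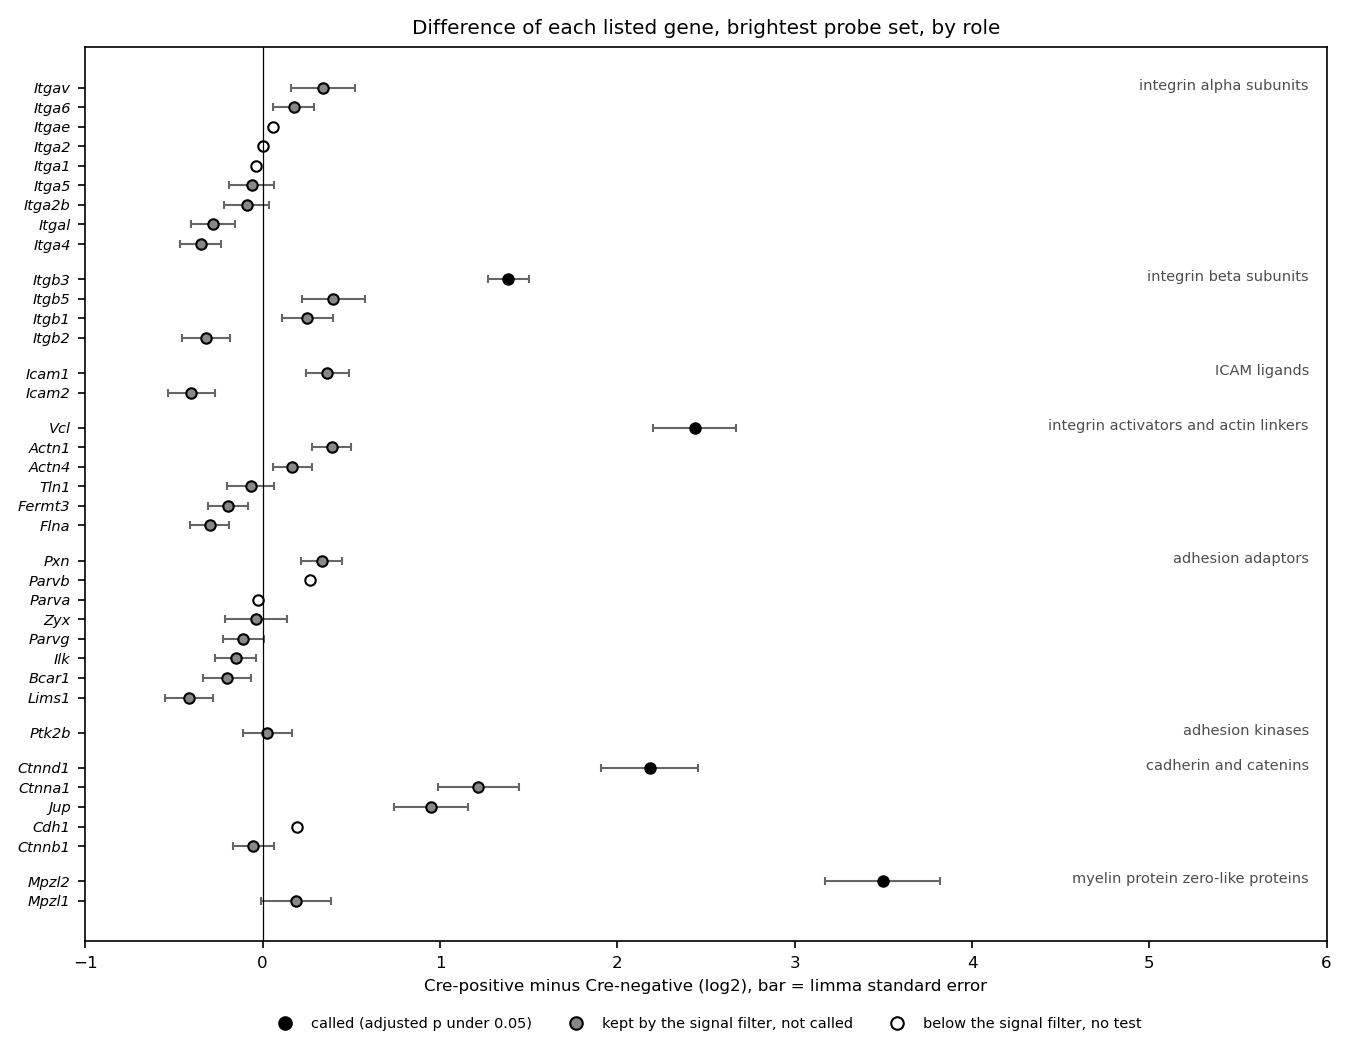
Difference between Cre-positive and Cre-negative arrays (log2, horizontal axis) of the brightest probe set of each of the 37 genes, grouped by role; bars are limma standard errors, black points were called, grey points passed the signal filter without a call and open points lay below it. Mpzl2, Vcl, Ctnnd1 and Itgb3 are the 4 black points, at 3.50, 2.44, 2.18 and 1.38, and most other genes lie close to 0.

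Of the alpha subunits, 6 of 9 passed the filter and 0 were called in limma. At an unadjusted limma p under 0.05, 0 were higher and 1 was lower, against 14.3% and 6.29% of all genes. Itga4, the alpha chain of VLA-4, read 9.14 and 9.04 in controls 1 and 2 and 8.74 on both CD4-Cre+ arrays. Its arrays did not overlap, and the difference was −0.35 ± 0.11 (SE, n = 2 per group; limma adjusted p = 0.175). Itgal, the alpha chain of LFA-1, read 11.35 and 11.44 in the controls and 11.21 and 11.03 on the CD4-Cre+ arrays, a difference of −0.28 ± 0.12. Again both Cre-positive arrays were the lower ones. Itgav, the alpha chain of receptors for vitronectin, differed by 0.34 with overlapping arrays. Itga6, the alpha chain of laminin receptors, differed by 0.17. Its 2 probe sets (0.17 and 0.30) both had higher Cre-positive arrays, as did the brightest probe set of 34.2% of all genes. Itga5, of the fibronectin receptor, and Itga2b, the platelet alpha chain, differed by −0.06 and −0.09. The collagen receptor chains Itga1 and Itga2 and the E-cadherin receptor chain Itgae lay below the filter, with differences from −0.04 to 0.06.

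All 4 beta subunits passed the filter, and Itgb3, which pairs with Itgav or Itga2b, was called. It read 4.92 and 4.94 in controls 1 and 2 and 6.38 and 6.25 on CD4-Cre+ arrays 1 and 2. The groups were far apart beside the spread within them, with means of 4.93 ± 0.02 and 6.31 ± 0.09 (SD, n = 2 each). Itgb3 thus rose by 1.38 ± 0.12 (SE; 2.61-fold; limma adjusted p = 0.0175), and its adjusted p with 1 array left out lay between 0.046 and 0.138. Its other probe set lay below the filter and differed by 0.05, and the mean of both gave 0.72 (adjusted p = 0.0471). The partners of Itgb3 passed the filter but were not called. Itgb2, the beta chain of LFA-1, read 11.96 and 11.80 in the controls and 11.66 and 11.46 on the CD4-Cre+ arrays. Its difference of −0.32 ± 0.13 was close in size to that of its partner Itgal, and neither passed (limma adjusted p = 0.261 and 0.285). Itgb1, the common partner of many alpha chains, differed by 0.25, and its 3 probe sets above the filter ran from 0.25 to 0.43. Itgb5, another vitronectin receptor chain, differed by 0.40 ± 0.18, and its second kept probe set by 0.08.

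The ICAM genes encode ligands of LFA-1. Icam1 read 7.17 and 7.03 in controls and 7.51 and 7.42 on CD4-Cre+ arrays, and Icam2 read 10.87 and 10.62 against 10.31 and 10.38. The arrays of neither gene overlapped, but they lay in opposite directions, at 0.36 ± 0.12 and −0.40 ± 0.13 (SE), and neither passed (limma adjusted p = 0.18 and 0.183).

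Of the 6 genes for integrin activators and actin linkers, only Vcl was called. Vcl encodes vinculin, which is recruited to talin under tension and binds actin. It read 5.93 and 5.35 in controls 1 and 2 and 8.26 and 7.89 on CD4-Cre+ arrays 1 and 2. Vcl rose by 2.44 ± 0.23 (SE; 5.41-fold; limma adjusted p = 0.0204), and with 1 array left out by 2.15 to 2.73, at adjusted p-values from 0.0415 to 0.125. The mean of both probe sets gave 1.24, since the other one lay near the bottom of the signal range, between 3.09 and 3.37, and differed by 0.04. Actn1, an alpha-actinin that crosslinks actin at adhesions, read 10.57 and 10.63 against 10.989 and 10.996. This was a tight pair in each group, with a difference of 0.39 ± 0.11, 3 of 3 probe sets with higher Cre-positive arrays, and an adjusted p of 0.146 in limma. The other alpha-actinin gene, Actn4, differed by 0.17. Flna, an X-linked gene for the actin crosslinker filamin A, read 9.24 in each control and 8.93 and 8.95 on the CD4-Cre+ arrays. Flna differed by −0.30 ± 0.11 without a call (limma adjusted p = 0.21), and control 2, with the female pattern, read as control 1 did.

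Talin 1 (Tln1) and kindlin-3 (Fermt3), the activators of leukocyte integrins, differed by −0.07 and −0.19 in their brightest probe sets, but each had a dimmer probe set with a larger negative difference. Fermt3 had 2 further probe sets at −0.31. Its dimmest one read 9.44 and 9.21 in controls 1 and 2 and 8.20 and 8.08 on CD4-Cre+ arrays 1 and 2. It fell by 1.19 ± 0.14 (SE; adjusted p = 0.0374 in limma across 20967 probe sets, of which 0.229% fell) and was the only one of the 59 kept probe sets of these genes to fall; 0 passed with any 1 array left out. The Tln1 probe set in question read 8.64 and 7.94 against 7.43 and 7.16, a difference of −0.99 ± 0.25 that was not called. Which transcripts these dimmer probe sets bind was not determined.

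Of 6 adaptor genes that passed the filter, 0 were called in limma. At an unadjusted limma p under 0.05, 1 was higher and 1 was lower, against 14.3% and 6.29% of all genes. Lims1 encodes PINCH-1, which joins integrin-linked kinase to its partners. Its brightest probe set read 11.56 and 11.30 in controls and 11.002 and 11.021 on CD4-Cre+ arrays, a difference of −0.42 ± 0.13 (limma adjusted p = 0.174). Both Cre-positive arrays were lower in 4 of its 5 probe sets, which ran from −0.95 to −0.29, and the fifth differed by 0.02. For the brightest probe set of each gene this held in 18.7% of all genes, and no share was counted over all probe sets. Pxn, the scaffold paxillin, differed by 0.33 ± 0.12, with both Cre-positive arrays higher (11.08 and 10.95, against 10.66 and 10.70). Its other kept probe set differed by 0.08 with overlapping arrays. Integrin-linked kinase (Ilk) differed by −0.15, the leukocyte parvin gene Parvg by −0.11, the scaffold gene Bcar1 (p130Cas) by −0.20 and zyxin (Zyx) by −0.04. Parva and Parvb lay below the filter. The focal adhesion kinase relative Ptk2b (Pyk2) differed by 0.03, with overlapping arrays, and by −0.10 with arrays centred on the median of the kept genes; no other kept gene of the list changed sign under the 2 scaling alternatives.

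Of the 4 catenin genes, 1 rose and 3 had both Cre-positive arrays above both control arrays, beta-catenin being the exception; over all genes 1.11% rose and 34.2% had such arrays, and nothing is read from the difference. Ctnnd1 encodes p120-catenin, which holds cadherins at the membrane. It read 4.90 and 5.47 in controls 1 and 2 and 7.67 and 7.06 on CD4-Cre+ arrays 1 and 2. Ctnnd1 rose by 2.18 ± 0.27 (SE; 4.54-fold; limma adjusted p = 0.0368), and its other probe sets, at 0.95 and 0.49, also had higher Cre-positive arrays. The call was lost with the mean of its probe sets (1.21, adjusted p = 0.0606), and when probe sets with possible binding to several transcripts were left out, where the remaining one gave 0.49 (limma adjusted p = 0.187). Ctnna1, alpha-catenin, which binds vinculin and actin, read 9.64 and 9.89 in the controls and 11.29 and 10.67 on the CD4-Cre+ arrays. This difference of 1.22 ± 0.23 (2.32-fold) missed the threshold (limma adjusted p = 0.0726). A second Ctnna1 probe set differed by 1.30, while a dimmer one differed by 0.14 with overlapping arrays and the dimmest by −0.01. Jup encodes plakoglobin (gamma-catenin), the catenin of desmosomes and a close relative of beta-catenin. Its only probe set read 7.22 and 7.08 against 8.39 and 7.81, a difference of 0.95 ± 0.21 (1.93-fold; limma adjusted p = 0.0958). In Ctnnd1, Ctnna1 and Jup alike, CD4-Cre+ array 1 read above CD4-Cre+ array 2, and both read above the controls. Ctnnb1, beta-catenin itself, read 12.35 and 12.41 against 12.29 and 12.37, a difference of −0.05. Its dimmer probe sets differed by −0.31 and −0.71, both with lower Cre-positive arrays and neither called. Cdh1, E-cadherin, lay below the filter on all arrays, between 3.33 and 3.56.

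The largest difference on the list was that of Mpzl2, an adhesion protein of the immunoglobulin family that was first described in thymus epithelium. Mpzl2 read 3.19 and 3.41 in controls 1 and 2, near the bottom of the signal range, and 6.30 and 7.29 on CD4-Cre+ arrays 1 and 2. It differed by 3.50 ± 0.33 (SE; limma adjusted p = 0.0195; 0.0107 to 0.209 with 1 array left out). Both control arrays lay below the signal filter, so Mpzl2 was tested only because of its Cre-positive arrays and a difference was built into that choice; no fold is given. With the filter at the 60th percentile, with the mean of its probe sets, or without probe sets of wider binding, Mpzl2 lay below the filter and was not tested. A second Mpzl2 probe set read 2.77 and 2.82 against 3.65 and 4.91, the same order of the 4 arrays, and the last one differed by −0.08 with overlapping arrays. Its relative Mpzl1, which takes part in signalling by the phosphatase SHP-2, differed by 0.19 with overlapping arrays.

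**Figure D2:**
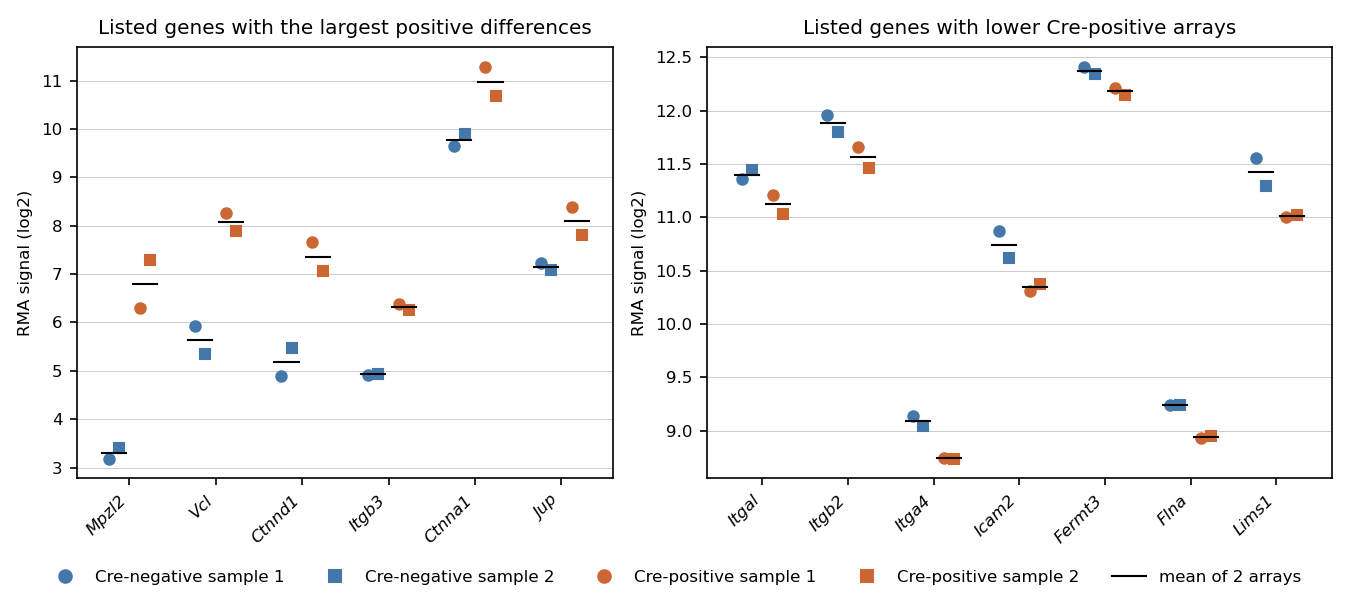
RMA signal (log2, vertical axis) on each of the 4 arrays for the 6 genes with differences of at least 0.5 and both Cre-positive arrays higher (left), and for 7 of the 10 genes with both Cre-positive arrays lower (right); blue is Cre-negative, orange Cre-positive, circles are sample 1, squares sample 2 and lines the mean of 2 arrays. The axes of the panels differ: the left one covers gaps of up to 3.50, the right one gaps of at most 0.42.

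Probe sets of one gene often gave different sizes. Of the 27 genes with several probe sets, 13 had differences of one sign only and 14 had both signs. Among the 17 genes with several probe sets above the filter, the spread between them exceeded 0.5 in 7: Ctnnd1, Ctnna1, Fermt3, Lims1, Tln1, Ctnnb1 and Itga4. For Itga4 the brightest kept probe set differed by −0.35 and another by 0.28. Of all 59 kept probe sets, 4 rose and 1 fell in limma across 20967 probe sets, where 0.639% rose and 0.229% fell.

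**Figure D3:**
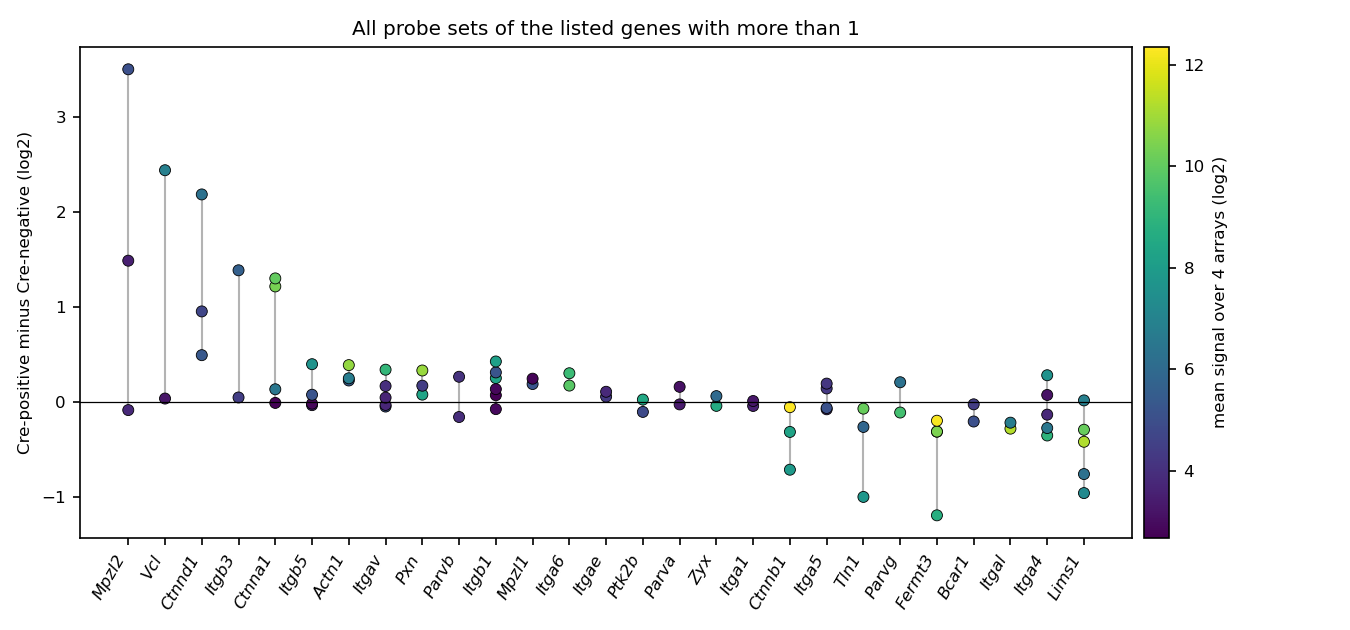
Difference between Cre-positive and Cre-negative arrays (log2, vertical axis) of every probe set of the 27 genes with more than 1, coloured by the mean signal over the 4 arrays; grey lines join the probe sets of one gene. The widest spread is that of Mpzl2, from −0.08 to 3.50, and Fermt3 and Tln1 each have a probe set, at −1.19 and −0.99, that stands below the others.

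Other genes of the same pathways, none of them on the list, were counted in the same fit. Over all genes tested 1.11% rose and 0.266% fell, and at an unadjusted limma p under 0.05 14.3% were higher and 6.29% lower. Nothing is read from differences between these shares and the counts that follow. Of 29 other adhesion complex genes that passed the filter, 1 rose and 1 fell. Tns3, a tensin that binds integrin tails and actin, read 8.90 and 8.86 in controls and 9.83 and 10.05 on CD4-Cre+ arrays and rose by 1.06 ± 0.13 (limma adjusted p = 0.0355). With arrays centred on the median of the kept genes it differed by 0.93 (adjusted p = 0.0506), and with the mean of both probe sets by 0.57 (adjusted p = 0.0965). Tes, a zyxin-related protein of adhesions, read 9.37 and 9.22 against 8.43 and 8.50 and fell by 0.83 ± 0.12 (limma adjusted p = 0.0488; 0.0513 with the signal filter at the 60th percentile). Neither kept its call with any 1 array left out. Dock1, an activator of Rac downstream of integrins, differed by 1.69 ± 0.27 without a call. Of 6 other integrin subunits 0 were called by limma (1 at an unadjusted p under 0.05, Itga9, at 0.90), with Itgax at 0.27 and Itga3 at 0.31. The Itgax control arrays (4.59 and 4.71) lay below the signal filter (4.76). Itgax was thus tested only because of its Cre-positive arrays, and a difference was built into that choice. Itgam, the myeloid alpha chain, lay below the filter between 3.60 and 3.72. Of 7 other cadherin, catenin and desmosome genes 0 were called by limma (1 at an unadjusted p under 0.05, Pkp4, at 0.67), with Ctnnd2 at −0.26 and Dsg2 at 0.17. Of 8 other immunoglobulin-type adhesion genes 0 were called by limma (0 at an unadjusted p under 0.05), with Cadm1 at 0.17, F11r at 0.14 and Cd48 at −0.18. Of 5 matrix ligands 0 were called by limma (1 at an unadjusted p under 0.05, the laminin gene Lamb2, at 1.27), with the laminin genes Lamc1 at −0.24 and Lama2 at −0.03. Both Lamb2 control arrays (4.26 and 4.06) lay below the signal filter (4.76). Lamb2 was thus tested only because of its Cre-positive arrays, and a difference was built into that choice. Of 6 beta-catenin target genes Myc rose, by 1.49 ± 0.20 (limma adjusted p = 0.0414), and 5 were not called, among them Lef1 (0.66), Ccnd1 (0.96) and Axin2 (0.40). Both Cre-positive arrays were higher for 5 of these 6 genes, against 34.2% of all genes. Nothing is read from the difference, since the lists were chosen with earlier results of these data known. With arrays centred on the median of the kept genes Myc differed by 1.36 (adjusted p = 0.0541), and its call was lost with any 1 array left out (adjusted p from 0.0672 to 0.209).

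**Figure D4:**
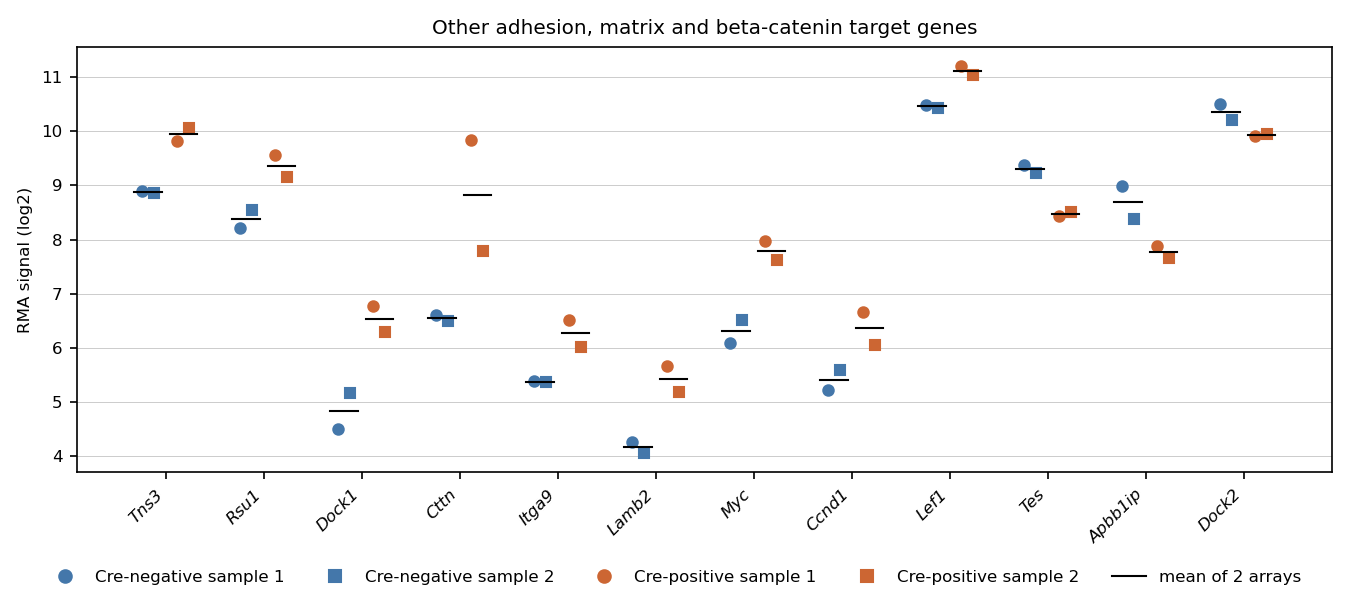
RMA signal (log2, vertical axis) on each of the 4 arrays for 12 genes of the other adhesion, matrix and beta-catenin target lists, with colours and symbols for group and sample number and lines for the mean of 2 arrays. Tns3, Tes and Myc were called; Cttn has the widest gap between the Cre-positive samples, at 9.84 and 7.79.

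Markers of other cell types were read on the same arrays. Over all genes tested 1.11% rose and 0.266% fell. Nothing is read from the counts of called markers, since the lists were chosen with earlier results of these data known. In a bulk sample more cells of a type and more RNA per cell cannot be told apart. Of the 10 macrophage markers, 7 passed the filter and Lyz2 rose (1.85). The list averaged 4.77 and 4.85 in controls and 5.34 and 5.27 on CD4-Cre+ arrays. Both Cre-positive arrays were higher for 4 of the 7, against 34.2% of all genes. These were Lyz2 and the complement genes C1qa (1.11), C1qc (0.95) and C1qb (0.49), which were not called. Control means of C1qc and C1qb lay below the filter value. Adgre1, Fcgr1 and Csf1r differed by −0.03, 0.002 and 0.19 with overlapping arrays, though another Csf1r probe set differed by 1.21. Of 9 dendritic cell markers, 8 passed the filter, and H2-Ab1 (1.58) and Irf8 (1.08) rose, against 1.11% of all genes. The dendritic cell list averaged 5.67 and 5.37 against 6.29 and 6.34. Its class II genes H2-Aa, H2-Eb1 and Cd74 differed by 2.25, 1.68 and 0.89 without a call, while Flt3 (−0.16), Zbtb46 (−0.14) and Siglech (0.01) did not share this and Xcr1 lay below the filter. Of 4 mature thymocyte markers, Il7r rose (1.12), Klf2 and Ccr7 differed by 0.71 and 0.04 without a call, and S1pr1 lay below the filter. Both Il7r control arrays (4.68 and 4.75) lay below the signal filter (4.76). Il7r was thus tested only because of its Cre-positive arrays, and a difference was built into that choice. The mature thymocyte list averaged 4.89 and 4.73 against 5.14 and 5.46. Granulocyte markers averaged 6.14 on CD4-Cre+ array 2 and 4.31 to 4.35 elsewhere, with S100a9 at 7.14, Ngp at 7.81 and Lcn2 at 5.08 there. Elane and Cxcr2 did not share this rise. Elane read 5.05 on that array, against 4.85 to 4.998 elsewhere. Cxcr2 read 3.71 on that array, within its range elsewhere (3.65 to 3.81). Of 7 fibroblast markers, Pdgfrb rose (1.05), and Col1a2 read 11.55 and 8.01 on CD4-Cre+ arrays against 5.18 and 5.33. Dcn went the other way, at 4.93 and 4.86 on CD4-Cre+ arrays against 5.04 and 5.16. Its difference was −0.21, without a call. Col1a1, Col3a1, Lum and Pdgfra lay below the filter on all arrays. The fibroblast list averaged 4.26 and 4.31 in controls and 5.28 and 4.81 with Cre. The endothelial markers Emcn, Tek and Vwf also lay below the filter on all arrays. Of 7 thymic epithelium markers, Foxn1, Krt14 and Psmb11 lay below it, and 4 passed without a call: Krt8 read 5.26 and 5.31 in controls against 5.42 and 6.01, a difference of 0.43, and Krt18, Krt5 and Epcam had overlapping arrays, with Krt18 at 0.29 and Epcam at −0.13. The 8 platelet markers measured averaged 4.45 and 4.51 in controls and 4.48 and 4.51 on CD4-Cre+ arrays, and 5 of them, Pf4 and Ppbp included, lay below the filter. The part of any of these cell types in the higher Vcl, Ctnnd1, Itgb3 and Mpzl2 signal was not tested. The brightest markers of the remaining lists gave differences of −0.08 (Cd79b, B cell), 0.82 (Tyrobp, natural killer cell), −0.03 (Alas2, erythroid), −0.61 (Cd44, double negative thymocyte) and 0.09 (Egfl7, endothelium), and none of these 5 was called in limma. Tyrobp and Cd44 did not stand for their lists. The natural killer markers Klrk1 (0.08) and Ncr1 (0.06) lay below the filter with overlapping arrays. The double negative markers Il2ra (−0.40), Igll1 (−0.02) and Kit (0.19) had overlapping arrays, and Kit lay below the filter. The other B cell markers measured, Ms4a1 (0.71), Pax5 (0.18) and Cd79a (0.27), each had higher Cre-positive arrays, as 34.2% of all genes did, and none was called. Cd79a lay below the filter, and Ms4a1 passed it only through its Cre-positive arrays.

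**Figure D5:**
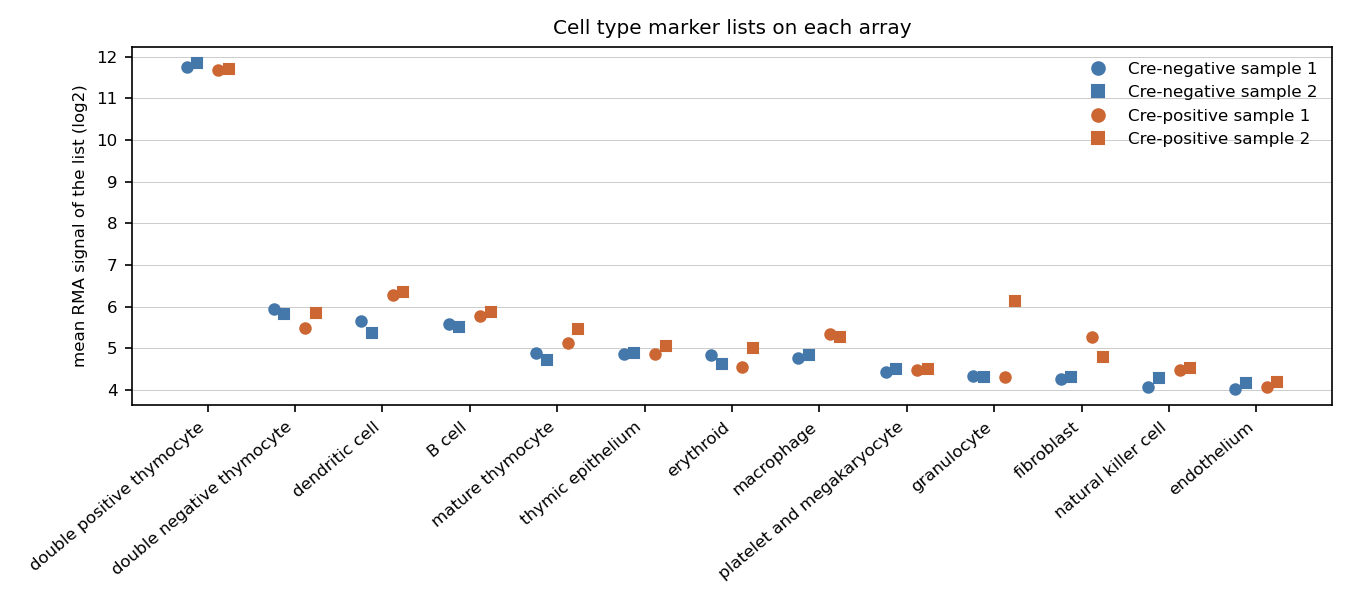
Mean RMA signal (log2, vertical axis) of each cell type marker list on each of the 4 arrays, with blue for Cre-negative, orange for Cre-positive, circles for sample 1 and squares for sample 2. Double positive thymocyte markers lie between 11.68 and 11.84 on all arrays, and the granulocyte list stands apart in Cre-positive sample 2.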

How the data were processed

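The authors deposited 1 log2 signal per probe set and array, made with RMA, per the submitters' processing notes, a method that corrects background, normalizes between arrays and sums up each probe set; base 2 was taken as the scale RMA returns. Values lay between 2.18 and 14.4, array medians were 5.19 to 5.25, and with no counts the 2 arrays in each group set the precision. Per the labels' protocols, targets were made by repeated amplification from small RNA inputs that differed between labelling codes, and the labels do not tie a code to an array. Symbols came from the platform annotation; of 45037 probe sets, 34945 had 1 symbol, 932 several and 9160 none. Each gene was read from its brightest probe set, and genes below the 40th percentile of probe set means (4.76) were left out, which removed 6 of the 37 listed genes with a probe set.

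Groups were compared with limma 3.58.1 (lmFit and eBayes, R 4.3.3), as a two-sided test, and p-values were adjusted by Benjamini-Hochberg over 11639 genes, or over 20967 probe sets where probe sets are named; calls had an adjusted p under 0.05. Each difference is Cre-positive less control. Residual degrees of freedom were 2, with 3.59 from the prior; an exact permutation test of 2 against 2 cannot go below 0.333. Simulated data for this comparison (11639 genes) recovered 70 of 100 genes at a log2 change of 1 and 98 of 100 at 2, and 8 of 176 calls were false. Noise in it was independent and drawn from the variance prior that limma fitted, without differences of sex or granulocyte signal between arrays. The recovery holds only for data of that form. Members, lists, tests and the rule for named genes were chosen with earlier results of these data known. The rule took Ikzf1 and all members, with array values for those called, those not overlapping with a difference of at least 0.5, those with probe sets of at least 0.5 in both directions (there were none) and at least 1 per role. From other pathway lists it took the called genes and up to 3 with the smallest p, and from marker lists the called and brightest genes and any with a gap over 2 between arrays of a group. Cttn, Rsu1, Apbb1ip and Dock2 were plotted, and other markers named, after their values were seen. Alternatives were the filter, probe set choice, scaling, variance prior, weights, a replicate block and leaving out each array. Figure scripts used matplotlib 3.10.9.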

Additional observations from a re-analysis of the deposited data

How the results depend on the processing

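The 4 listed genes that rose stayed 4 with no filter, both scalings, array weights and a variance prior with trend, and were 6 with the sample number as a replicate block. They were 1 with the filter at the 60th percentile, below which 3 of them lie, 2 with the mean of all probe sets, and 2 when probe sets of wider binding (several transcripts) were dropped, where 1 gene (Fermt3) fell; leaving out single arrays gave 0 to 4. Over all genes, 129 higher and 31 lower calls became 68 higher (60th percentile), 73 higher (without those probe sets), 222 and 79 (trend), 75 and 48 (centring on kept genes, chosen after seeing the data) and 628 and 193 (block), with 3 to 95 and 0 to 4 when single arrays were left out. The 182 called probe sets became 105, 511, 525 and 1475 under the 60th percentile, trend, that centring and the block, and 4 to 48 without single arrays; the listed probe sets that rose were 1 at the 60th percentile, 7 with the block and 0 to 1 without single arrays, and those that fell 2 with trend, 2 with that centring, 4 with the block and 0 without any single array. The 3 calls among other pathway genes became 5 (no filter), 7 (trend), 5 (centring on all probe sets), 1 (on kept genes), 10 (block) and 0 to 1 (single arrays). The listed genes' median difference was −0.10 after centring on kept genes and −0.026 to 0.15 without single arrays. The cause of these shifts was not tested.

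Sample numbers are not stated to pair the mice; deviations of same-numbered samples correlated at 0.18 across genes, over 2 pairs only. With 2 mice per group, small differences could not be told from none, and genes near the bottom of the signal range have uncertain sizes.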
